A study of Homo sapiens with 8 samples.

Results

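The proteins stored in the granules of neutrophils and monocytes were followed here through 8 genes, ELANE, PRTN3, AZU1, CTSG, MPO, LYZ, RNASE2 and RNASE3. They were found by symbol in a table of 26364 gene symbols and were described in all 8 libraries of the series. The libraries were made from MV4-11, a human acute myeloid leukemia (AML) cell line whose labels give a FLT3-ITD and an MLL-AF4 fusion, which all groups shared. The RNA was sequenced after DMSO, the vehicle, after tranylcypromine (TCP, an inhibitor of the histone demethylase LSD1) at 5 µM, after palbociclib (an inhibitor of CDK4 and CDK6) at 0.5 µM, or after both at these doses (combination). Each group had 2 replicates, labelled day 4. Elsewhere in the study, combined treatment is described as beginning with the CDK6 inhibitor on its own for a day, so the time spent in TCP may have been shorter than the label in the libraries that received it. The study describes its AML lines as cocultured on HS-5, a human stromal cell line. Its RNA-seq methods do not state whether this held here, so some stromal RNA may be included. All values come from cultures of 1 AML cell line, and the labels do not say whether replicates were separate cultures. The p-values measure the spread between these libraries only, which may be technical.

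Granule proteins are made early in myeloid maturation, in promyelocytes, and are then packed into primary (azurophil) granules. The serine proteases neutrophil elastase, proteinase 3 and cathepsin G are stored there with azurocidin, a relative that has lost its catalytic activity, and with myeloperoxidase, which makes hypochlorous acid. Lysozyme cuts bacterial cell walls and goes on being made by maturing monocytes and macrophages, and the ribonucleases encoded by RNASE2 and RNASE3 are best known from eosinophils but are also found in neutrophils and monocytes. AML cells are arrested at stages at which part of this programme is active, and the study asked whether inhibiting CDK6 and LSD1 moves them past the arrest.

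The values are TPM, transcript amounts corrected for gene length and scaled to 1 total shared by all libraries, so read depth is unknown and a gene's level can move when abundant genes take a larger share. Genes were tested where 2 or more libraries had 1 TPM or more, as was the case for 14151 genes and for all 8 members. Differences are on the log2(TPM + 1) scale with the standard error (SE) of a limma fit to all 8 libraries, and a gene is said to have risen or fallen where this difference was at least 1 and the Benjamini-Hochberg adjusted p was below 0.01. Libraries had from 13320 to 13640 genes at 1 TPM or more, and replicates correlated with r of 0.983 to 0.991 across tested genes. A library that stood apart was Palbociclib replicate 2, in which 12 genes of stromal cells summed to 98.5 TPM, against 2.24 to 20.6 TPM in the other 7 libraries. No stromal gene of the 6 tested was called in any comparison. With the excess in 1 of the 2 palbociclib libraries their SE was large, as for FN1 (1.61 ± 0.83 with palbociclib). The lack of calls thus does not show that stromal RNA was absent, and its source was not tested. With each library left out in turn, the palbociclib difference of ELANE, the smallest of the 6 members that rose, ran from 1.22 to 1.38.

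All 8 members were transcribed in the vehicle group, over a wide range of levels. Their RNA summed to between 0.321 and 0.342% of all transcripts in DMSO and to between 0.231 and 0.328% in TCP. It reached 2.76 to 2.96% in palbociclib and 3.33 to 3.48% in the combination. LYZ made up most of the sum in the latter groups. Without LYZ the sum was 0.265 to 0.294% in DMSO, 0.159% in both TCP libraries, 1.07 to 1.11% in palbociclib and 0.619 to 0.676% in the combination, so that the 4 groups did not overlap and stood in the order palbociclib, combination, DMSO, TCP. In bulk RNA a change in the share of cells that make a transcript and a change in the amount each cell makes cannot be told apart.

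**Figure D1:**
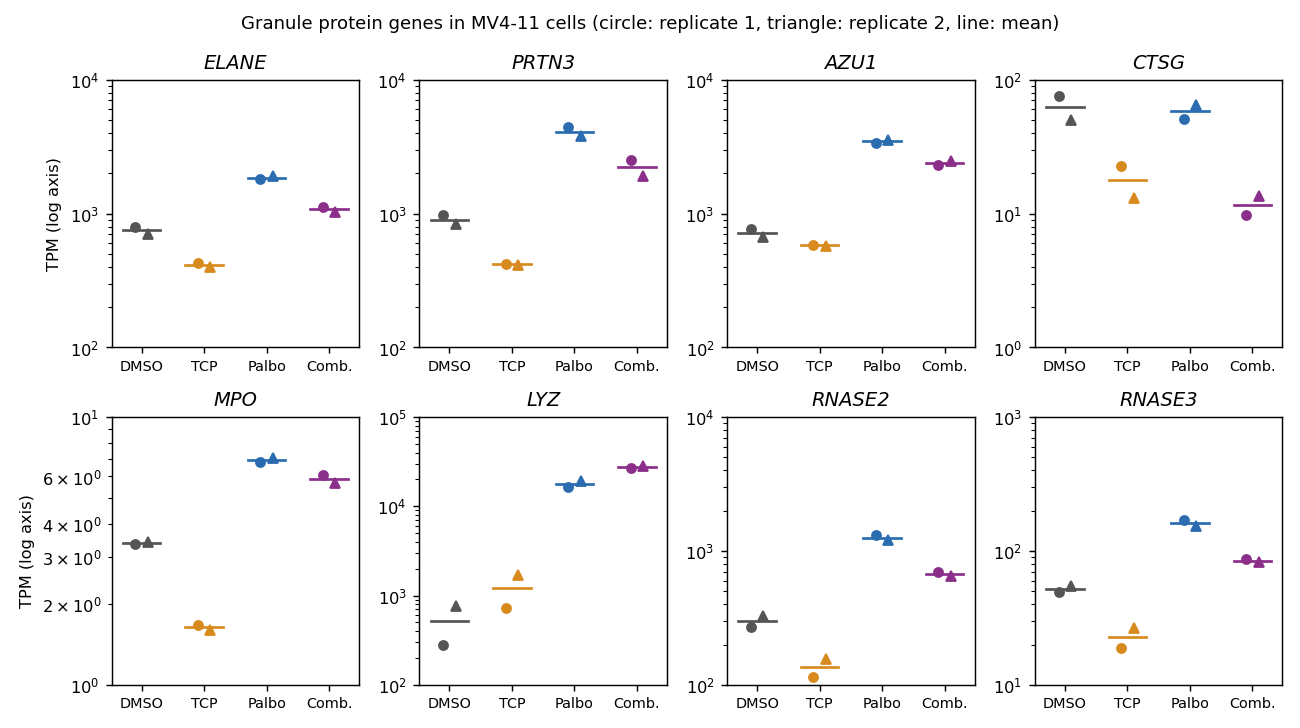
TPM of each of the 8 granule genes (log axis, a separate range in each panel) in the DMSO, TCP, palbociclib (Palbo) and combination (Comb.) libraries, with replicate 1 as a circle, replicate 2 as a triangle and the group mean as a line. 6 of the genes share the order palbociclib, combination, DMSO, TCP. The share of all tested genes with this order was not counted. CTSG and LYZ do not: CTSG is lowest in TCP and the combination, and LYZ is highest in the combination.

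ELANE, the gene of neutrophil elastase, measured 798 and 709 TPM in DMSO, 425 and 401 TPM in TCP, 1802 and 1907 TPM in palbociclib, and 1115 and 1034 TPM in the combination. No group overlapped another. For this gene and those below, the share of all tested genes with fully separate groups was not counted. ELANE rose with palbociclib by 1.30 ± 0.085 (SE) on the log2 scale (adjusted p = 0.000117), from a mean of 754 ± 62.4 to 1854 ± 74.5 TPM (SD, n = 2). The combination was 0.51 ± 0.085 above DMSO (adjusted p = 0.00239) and differed from palbociclib by -0.79 ± 0.085 (adjusted p = 0.00782), both under the size a call required. With TCP alone the log2 difference was -0.86 ± 0.085 (adjusted p = 0.0142).

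PRTN3 encodes proteinase 3, the autoantigen of a form of vasculitis. Its level was 971 and 831 TPM in DMSO, 419 and 417 TPM in TCP, 4401 and 3798 TPM in palbociclib, and 2534 and 1918 TPM in the combination. The groups were again fully separate, with the palbociclib libraries about 4.55 times the vehicle mean. PRTN3 rose with palbociclib (2.19 ± 0.15, adjusted p = 0.000129) and with the combination (1.29 ± 0.15, adjusted p = 0.000478). TCP gave -1.10 ± 0.15, which missed the threshold (adjusted p = 0.0400) but passed it when the replicate number was added as a block (adjusted p = 0.00686).

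AZU1, the gene of azurocidin, had the smallest TCP difference of 3 neighbouring proteases and relatives. The values were 768 and 674 TPM in DMSO, 585 and 572 TPM in TCP, 3394 and 3535 TPM in palbociclib, and 2308 and 2478 TPM in the combination. Here too every group stood apart. AZU1 rose with palbociclib by 2.27 ± 0.085 (adjusted p = 2.24e-05) and with the combination by 1.73 ± 0.085 (adjusted p = 2.76e-05). With TCP alone the mean was 0.802 of the vehicle mean, with a log2 difference of -0.31 ± 0.085 (adjusted p = 0.279).

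These 3 genes lie side by side on the plus strand of chromosome 19, in GRCh37 (GENCODE) at chr19:825097-832018 for AZU1, chr19:840999-848175 for PRTN3 and chr19:851014-856247 for ELANE, with 8980 and 2838 bases between them. The next gene, CFD, encodes complement factor D, another serine protease of the same fold, and starts 3205 bases past ELANE. CFD measured 394 and 352 TPM in DMSO, 248 and 222 TPM in TCP, 1098 and 1133 TPM in palbociclib, and 883 and 876 TPM in the combination. It thus kept the order of its neighbours, and rose with palbociclib (1.58 ± 0.085, adjusted p = 6.98e-05) and with the combination (1.24, adjusted p = 7.10e-05). In a window of 100 kb on either side of the ELANE start, chosen after the values were seen, 11 protein-coding genes begin, of which 8 were tested. The other 4 tested genes had log2 differences between -0.89 and 0.31 with palbociclib, and none of them was called in that comparison. With the combination 1 of the 4 passed, PTBP1, which encodes a splicing regulator and fell (-1.03, adjusted p = 0.000558). With TCP these 4 lay between -0.19 and 0.04.

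The promoters of AZU1 and PRTN3 are shown because these 2 genes had nearly the same palbociclib difference and unlike TCP differences. RefSeq (GRCh38.p14) gives windows for 5 of the 8 members, AZU1, PRTN3, CTSG, RNASE2 and RNASE3, and the 250 bases before the RefSeq start were read from them. By its coordinates the AZU1 window lies inside the GENCODE span of AZU1 given above, whereas the PRTN3 window ends just before the PRTN3 span. The AZU1 start used for its promoter is thus not the one used for the distances between genes. Capitals mark every match, on either strand, to TTNNGNAA (a C/EBP word), GAGGAA (PU.1), CAACNG (MYB) or AAATCA (GFI1), factors known to act on myeloid genes. Each stretch is written 5′ to 3′ on the gene's strand, and no match overlaps another.
AZU1, chr19:827587-827836, plus strand: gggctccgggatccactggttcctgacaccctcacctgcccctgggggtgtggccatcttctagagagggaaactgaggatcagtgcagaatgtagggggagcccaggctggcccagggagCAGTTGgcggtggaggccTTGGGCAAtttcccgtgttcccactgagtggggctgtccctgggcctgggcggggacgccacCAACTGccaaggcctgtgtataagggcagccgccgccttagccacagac
PRTN3, chr19:840749-840998, plus strand: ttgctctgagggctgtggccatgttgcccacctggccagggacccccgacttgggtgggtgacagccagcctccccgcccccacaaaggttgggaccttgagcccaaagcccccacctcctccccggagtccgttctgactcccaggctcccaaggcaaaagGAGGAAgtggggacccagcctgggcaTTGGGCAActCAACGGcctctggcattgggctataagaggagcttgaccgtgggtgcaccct
Both hold a C/EBP and a MYB word, at -111 and -129 in AZU1 (with a second MYB word at -49) and at -62 and -52 in PRTN3, counted as the first base of the word from the start, with the base before the start as -1. PRTN3 also holds a PU.1 word at -88. Of all 35116 promoters of this length, 33.2% held the C/EBP word, 27.0% the MYB word, 23.6% the PU.1 word and 11.6% the GFI1 word, and 9.50% held both of the first pair. Of the 5 members with a window, 4 held a C/EBP word, the same 4 held a MYB word, 2 held a PU.1 word and 0 a GFI1 word. Among the 4 are RNASE2 and RNASE3, whose promoters are close copies (96.5% of aligned bases identical), so the 4 are not independent cases. These are matches of letters, not sites at which binding was measured.

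CTSG, the gene of cathepsin G, a chymotrypsin-like protease, went another way. It measured 76.1 and 49.9 TPM in DMSO, 22.6 and 13.1 TPM in TCP, 51.0 and 65.0 TPM in palbociclib, and 9.77 and 13.5 TPM in the combination. Palbociclib and DMSO overlapped, as did TCP and the combination, and both groups with TCP lay below both groups without it. CTSG fell with the combination (-2.33 ± 0.30, adjusted p = 0.000838), the only member to do so, to 0.185 of the vehicle mean. The palbociclib difference was -0.10 ± 0.30 (adjusted p = 0.817), and its sign turned when libraries were rescaled (0.04 with quantile normalization, 0.07 with median-ratio scaling). With TCP alone it was -1.78 ± 0.30 (adjusted p = 0.0864).

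CTSG lies on the minus strand of chromosome 14 at chr14:25042724-25045456 (GRCh37), away from the cluster of the other proteases and beside the mast cell chymase gene CMA1 and the granzyme gene GZMH, which reached at most 0.814 and 0.132 TPM in any library. Its promoter is shown as the one of the 5 that held neither a C/EBP nor a MYB word in the 250 bases, with PU.1 words at -46 and -16.
CTSG, chr14:24576251-24576500 (GRCh38.p14), minus strand: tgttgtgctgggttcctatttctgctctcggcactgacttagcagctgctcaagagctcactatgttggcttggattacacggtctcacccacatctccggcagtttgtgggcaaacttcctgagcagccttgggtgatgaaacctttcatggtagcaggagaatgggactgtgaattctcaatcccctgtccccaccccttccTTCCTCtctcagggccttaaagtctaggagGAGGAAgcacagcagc
No difference between the groups can be read from these letters, which are the same in every library.

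MPO is commonly a strong marker of myeloid blasts, but in these cells its RNA was low. The gene (chr17:56347216-56358296, GRCh37, minus strand) measured 3.37 and 3.42 TPM in DMSO, 1.67 and 1.604 TPM in TCP, 6.82 and 7.03 TPM in palbociclib, and 6.09 and 5.67 TPM in the combination. The 4 groups did not overlap and had the same order as ELANE. MPO ranked between 10224 and 12914 among the 26364 symbols, while ELANE ranked between 57 and 319. The log2 difference was 0.85 ± 0.12 with palbociclib (adjusted p = 0.00159) and 0.65 ± 0.12 with the combination (adjusted p = 0.00365), short of the size of a call. At so low a level the added 1 TPM narrows the difference: the palbociclib mean was 2.04 times the vehicle mean, and with a pseudocount of 0.1 the log2 difference was 1.01 and passed. Combination against TCP gave a rise of 1.38 ± 0.12 (adjusted p = 0.000177). Its neighbour LPO, the lactoperoxidase gene, was called in none of the 3 comparisons with DMSO (-1.13 with palbociclib, adjusted p = 0.0742).

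LYZ, the lysozyme gene (chr12:69742161-69748014, GRCh37, plus strand), had the largest differences among the members wherever palbociclib was added to DMSO or to TCP. It measured 278 and 770.5 TPM in DMSO, 718 and 1696 TPM in TCP, 16431 and 18984 TPM in palbociclib, and 26591 and 28617 TPM in the combination. DMSO and TCP overlapped, and every library with palbociclib was at least an order of magnitude above DMSO. LYZ ranked between 136 and 517 among all symbols in DMSO, 4 in both palbociclib libraries and 2 in both combination libraries. It rose with palbociclib by 5.25 ± 0.52 (adjusted p = 0.000458), with a mean 33.8 times that of DMSO, and with the combination by 5.89 ± 0.52 (adjusted p = 0.000173), with a mean 52.7 times that of DMSO. These sizes depended on single DMSO libraries, while the calls held: over the 8 libraries left out in turn the differences ran from 4.52 to 5.98 with palbociclib and from 5.16 to 6.63 with the combination, lowest without DMSO replicate 1 and highest without DMSO replicate 2. Between libraries of the same number the ratios were 59.1 and 24.6 for palbociclib over DMSO, and 95.6 and 37.1 for the combination over DMSO.

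The smaller steps of LYZ, those of TCP, did not pass. In DMSO and in TCP, replicate 2 was above replicate 1 by 1.47 and 1.24 on the log2 scale, against 0.21 and 0.11 in palbociclib and the combination. TCP against DMSO gave 1.25 ± 0.52 (adjusted p = 0.559), and the combination against palbociclib gave 0.64 ± 0.52 (adjusted p = 0.586). Both combination libraries were nevertheless above both palbociclib libraries, as in 16.6% of tested genes. Libraries of the same number differed by similar amounts, 1.37 and 1.14 for TCP over DMSO and 0.69 and 0.59 for the combination over palbociclib. With the replicate number as a block the SE was 0.35, and neither step passed (adjusted p = 0.184 and 0.299). The neighbours of LYZ, CPSF6 and YEATS4, had combination differences of -0.91 (adjusted p = 0.000415) and -1.21 (adjusted p = 9.97e-05), of which YEATS4 passed as a fall.

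RNASE2 encodes the eosinophil-derived neurotoxin, and RNASE3 the eosinophil cationic protein. RNASE2 measured 271 and 325 TPM in DMSO, 115 and 155 TPM in TCP, 1309.8 and 1199 TPM in palbociclib, and 698 and 654 TPM in the combination. RNASE3 measured 49.3 and 54.7 TPM in DMSO, 18.9 and 26.7 TPM in TCP, 171 and 154 TPM in palbociclib, and 86.9 and 82.8 TPM in the combination. In both genes the 4 groups were separate and stood in the order of PRTN3. RNASE2 rose with palbociclib by 2.07 ± 0.15 (adjusted p = 0.000164) and with the combination by 1.18 ± 0.15 (adjusted p = 0.000782). RNASE3 rose with palbociclib by 1.63 ± 0.15 (adjusted p = 0.000393), while its combination difference of 0.70 ± 0.15 (adjusted p = 0.00814) was under the size of a call. TCP gave -1.15 ± 0.15 for RNASE2 and -1.17 ± 0.15 for RNASE3 (both adjusted p = 0.0373).

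These 2 values are uncertain to an unknown degree because the genes are close copies. They lie 63138 bases apart on chromosome 14, at chr14:21359544-21360507 (RNASE3) and chr14:21423646-21424595 (RNASE2), both GRCh37 and plus strand. Their GENCODE transcripts, of 734 and 720 bases, were identical at 637 of 717 aligned bases (88.8%), and the longest run they shared was 67 bases. Of the stretches of 50 bases in the RNASE3 transcript 3.07% occurred unaltered in RNASE2, and of those of 75 bases 0%, and how reads matching both were counted is not given in the sources used here. Their promoters, shown for this likeness, were identical at 192 of 199 aligned bases (96.5%), with the same C/EBP and MYB words 51 bases farther upstream in RNASE2.
RNASE3, chr14:20891135-20891384 (GRCh38.p14), plus strand: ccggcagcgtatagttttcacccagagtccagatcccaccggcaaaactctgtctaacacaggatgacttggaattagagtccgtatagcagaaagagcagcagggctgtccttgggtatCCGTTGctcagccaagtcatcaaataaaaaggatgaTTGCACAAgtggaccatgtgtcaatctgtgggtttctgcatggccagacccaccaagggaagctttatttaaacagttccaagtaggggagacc
RNASE2, chr14:20955237-20955486 (GRCh38.p14), plus strand: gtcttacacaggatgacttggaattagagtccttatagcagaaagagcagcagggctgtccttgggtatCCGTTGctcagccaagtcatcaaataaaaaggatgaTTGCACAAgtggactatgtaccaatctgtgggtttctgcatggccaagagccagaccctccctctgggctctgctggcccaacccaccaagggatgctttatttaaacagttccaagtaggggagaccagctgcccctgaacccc
The ratio of both genes was not the same in all groups. RNASE2 was 5.50 and 5.95 times RNASE3 in DMSO, 6.07 and 5.79 times in TCP, 7.66 and 7.79 times in palbociclib, and 8.04 and 7.90 times in the combination. Libraries with and without palbociclib did not overlap in this ratio.

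No eosinophil or mast cell gene was called beside these ribonucleases. Of 13 such genes 3 were tested and 0 were called in any of the 6 comparisons. These 3 were present at low levels: CCR3 at 1.69 to 4.12 TPM, PRG2 at 0.345 to 1.98 TPM and KIT at 0.528 to 1.48 TPM. CLC and PRG3, listed here as eosinophil markers, were at 0 in every library. EPX, the eosinophil peroxidase gene, stayed between 0.403 and 0.989 TPM. The list summed to 6.55 to 6.66 TPM in DMSO, 4.53 to 8.09 TPM in TCP, 5.22 to 5.90 TPM in palbociclib and 4.14 to 4.93 TPM in the combination. In the wider RNase A family, only RNASE6, of 11 other genes, was tested. RNASE6, which encodes a ribonuclease of monocytes and macrophages, had 47.2 and 52.6 TPM in DMSO, 77.5 and 85.9 TPM in TCP, 55.9 and 40.6 TPM in palbociclib, and 115 and 95.4 TPM in the combination. Both groups with TCP lay above both groups without it. RNASE6 rose with the combination against DMSO (1.05 ± 0.16, adjusted p = 0.00176), whereas TCP against DMSO gave 0.70 ± 0.16 (adjusted p = 0.201) and the combination against TCP 0.35 ± 0.16 (adjusted p = 0.112).

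Counted together, 0 of the 8 members passed with TCP against DMSO, where 0.0565% of tested genes did. All 8 had an unadjusted p under 0.05, as did 1241 of the 14151 genes. Both TCP libraries lay below both DMSO libraries in 7 members, all but LYZ, and in 22.3% of tested genes. The members' median difference was -0.98, against -0.04 over all tested genes. A design of 2 against 2 libraries cannot give an exact two-sided permutation p below 0.333, and the tests therefore rest on limma's spread shared over genes.

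With palbociclib against DMSO, 6 members rose and 0 fell, where 4.54% of tested genes rose. Both palbociclib libraries were above both DMSO libraries in 7 members, all but CTSG, and in 26.5% of tested genes. The median difference was 1.85 for the members and -0.16 over all tested genes. With the combination against DMSO, 4 members rose (PRTN3, AZU1, LYZ and RNASE2) and 1, CTSG, fell, where 5.87% of tested genes rose and 7.82% fell. Both combination libraries were above DMSO in the 7 members other than CTSG, and in 26% of tested genes. The members' median was 0.94 and that of all genes -0.22. The medians of all genes moved to -0.01 for both comparisons under median-ratio scaling, and the counts of called members were again 6 and 5. The balance of all called genes turned with the scaling for the combination, from 830 higher and 1107 lower to 1104 and 680 under median-ratio scaling and to 1006 and 778 under quantile normalization. For palbociclib it went from 643 and 645 to 817 and 414, and to 747 and 478. These 3 comparisons share the DMSO libraries, so their values for a member are not independent of each other.

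Adding TCP to palbociclib can be set beside adding TCP to vehicle, since the pairs share no library. In the combination against palbociclib 0 members were called, where 0.502% of tested genes were, and 6 members had an unadjusted p under 0.05, as did 2472 of the tested genes. Both combination libraries lay below both palbociclib libraries in 7 members, all but LYZ, and in 37.2% of tested genes. The differences were -0.79 for ELANE, -0.89 for PRTN3, -0.53 for AZU1, -2.23 for CTSG, -0.20 for MPO, -0.89 for RNASE2 and -0.93 for RNASE3. Those of TCP against DMSO were -0.86, -1.10, -0.31, -1.78, -0.74, -1.15 and -1.17 in the same order. Of these 7 members MPO had the widest gap between both settings, and LYZ, at 0.64 and 1.25, a wider one with a larger error. A difference below 0 in both settings was found for 7 of the 8 members and for 46.8% of tested genes.

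Likewise, palbociclib could be added to TCP. In the combination against TCP 7 members rose, all but CTSG, where 5.46% of tested genes rose, and their libraries lay above both TCP libraries, as in 25.9% of tested genes. The rises were 1.38 for ELANE, 2.40 for PRTN3, 2.05 for AZU1, 1.38 for MPO, 4.64 for LYZ, 2.33 for RNASE2 and 1.87 for RNASE3, with adjusted p between 2.17e-05 and 0.000516. CTSG gave -0.55 ± 0.30 (adjusted p = 0.174). The median was 1.96 for the members and -0.18 for all genes. Palbociclib gave a difference above 0 in both settings in 7 members and in 31.7% of tested genes, and 6 members and 12.7% of tested genes combined this with a difference below 0 for TCP in both settings.

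**Figure D2:**
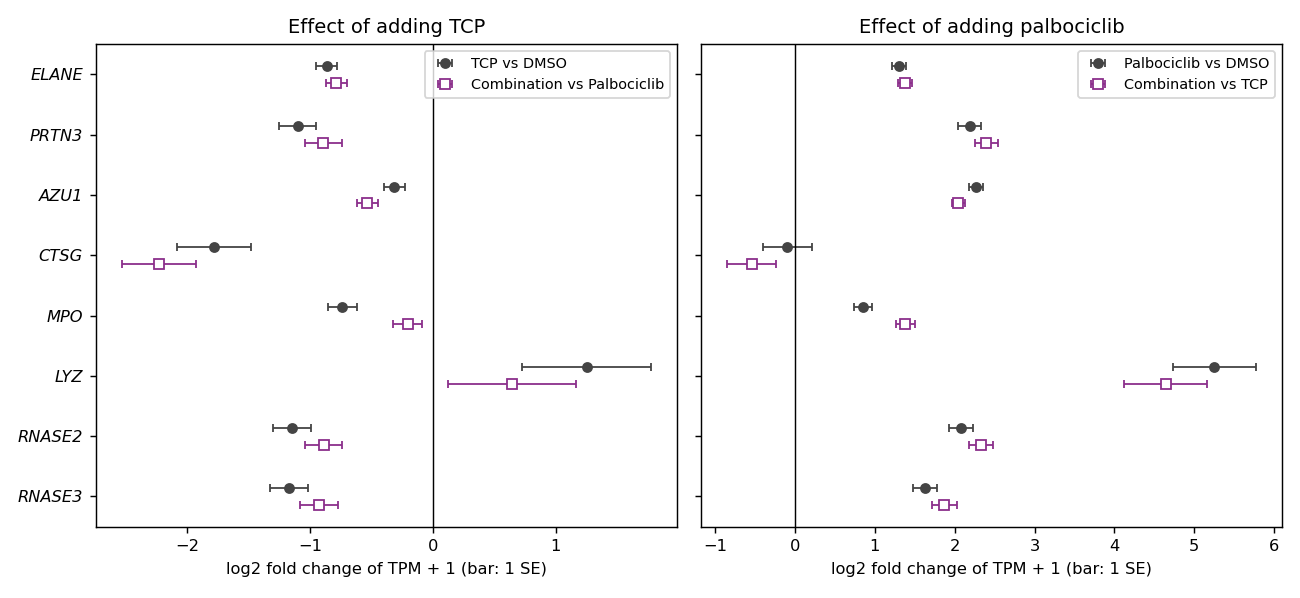
log2 fold change of each granule gene with its SE. The left panel shows TCP against DMSO (filled circles) and the combination against palbociclib (open squares), and the right panel palbociclib against DMSO (filled circles) and the combination against TCP (open squares). Except for LYZ all members lie below 0 in both series on the left, and except for CTSG all lie above 0 in both series on the right.

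Whether the effect of one molecule depended on the other was tested as an interaction, which passed for 0 members and for 0% of tested genes by limma. An unadjusted p under 0.05 was found for 904 of the 14151 genes and for 1 member, MPO, whose difference of 0.53 ± 0.17 stands for a smaller TCP difference in the presence of palbociclib (adjusted p = 0.599). The other 7 lay between -0.61 (LYZ, SE 0.74) and 0.26 (RNASE2, SE 0.21). With 4 residual degrees of freedom this does not show that the effects were equal.

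Within a library, ratios between members do not depend on how the library was scaled. AZU1 over ELANE was 0.963 and 0.949 in DMSO, 1.38 and 1.42 in TCP, 1.88 and 1.85 in palbociclib, and 2.07 and 2.40 in the combination. All 4 groups were separate in this ratio, although the genes are neighbours. PRTN3 over ELANE was 1.22 and 1.17 in DMSO, 0.987 and 1.04 in TCP, 2.44 and 1.99 in palbociclib, and 2.27 and 1.86 in the combination, so that palbociclib and the combination overlapped. CTSG over ELANE ran from 0.0954 and 0.0704 in DMSO to 0.00876 and 0.0131 in the combination, and LYZ over ELANE from 0.349 and 1.09 to 23.8 and 27.7. The members thus did not move as 1 block: relative to ELANE, the combination held more AZU1, PRTN3 and LYZ and less CTSG than DMSO.

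**Figure D3:**
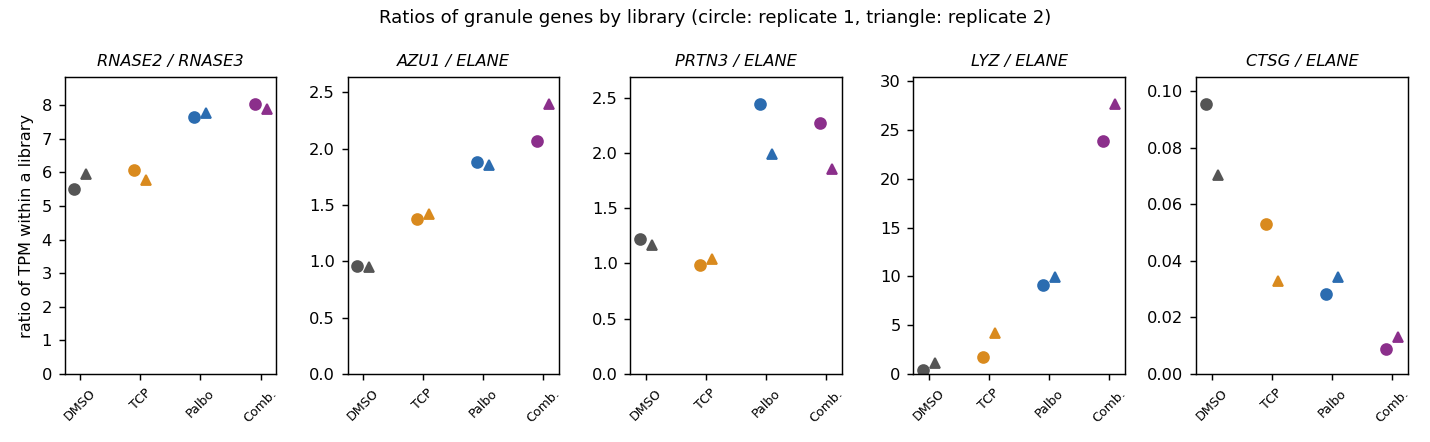
Ratio of the TPM of pairs of granule genes within each library (linear axes from 0, a separate range in each panel), with replicate 1 as a circle and replicate 2 as a triangle. RNASE2 over RNASE3 and AZU1 over ELANE are higher in every library with palbociclib than in any without it, and LYZ over ELANE is highest and CTSG over ELANE lowest in the combination.

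Other genes of the primary granule included some that rose and 1 that fell. Of 15 listed, 11 were tested, and the defensin genes DEFA1, DEFA1B, DEFA3 and DEFA4 were listed at 0 in every library. With palbociclib 5 rose and 1 fell, and with the combination 5 rose and 1 fell, with medians of 0.88 and 0.96. Over all tested genes 4.54% rose and 4.56% fell with palbociclib, and 5.87% rose and 7.82% fell with the combination. Without regard to the test, 9 of the 11 were higher with palbociclib and 10 of the 11 with the combination. SRGN encodes serglycin, the proteoglycan on which granule proteases are packed, and went from 4629 and 4986 TPM in DMSO to 22631 and 22343 TPM in palbociclib and 15474 and 14694 TPM in the combination. It rose in both (2.23 and 1.65). BPI, which kills gram-negative bacteria, rose from 0.659 and 0.519 TPM to 8.25 and 8.22 TPM with palbociclib and to 8.20 and 7.34 TPM with the combination. MNDA, a nuclear antigen of myeloid cells, rose with the combination by 2.12 (adjusted p = 2.14e-05). The 5 that rose with the combination include MNDA and RNASE6, the ribonuclease of monocytes and macrophages named above. This count is therefore not one of granule contents alone. PRSS57, a further protease of the primary granule, was the one that fell, from 359.5 and 325 TPM in DMSO to 146 and 112 TPM with palbociclib and 113 and 74.0 TPM with the combination.

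Secondary and tertiary granules are filled later in neutrophil maturation, and most of their genes stayed unexpressed. Of 15 listed, 10 were below the limit for testing, with at most 0.975 TPM in any library, among them LTF, CAMP and LCN2, the classical contents. Among the 5 tested, 3 rose with palbociclib and 4 with the combination, where 4.54% and 5.87% of all tested genes rose. CHI3L1, a chitinase-like protein also made by macrophages, rose from 17.3 and 12.04 TPM to 446 and 320 TPM with palbociclib and to 603 and 336 TPM with the combination. HP, the haptoglobin gene, rose with palbociclib and the combination by 3.76 and 3.15, and ORM1, an acute-phase glycoprotein whose reads may be shared with its copy ORM2, by 5.40 and 3.37. MMP9, a gelatinase, rose only with the combination at this threshold (2.32 ± 0.47, adjusted p = 0.00541), and its difference from palbociclib did not pass (1.39 ± 0.47, adjusted p = 0.184).

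Part of the genes that encode inhibitors of granule enzymes rose in the same libraries. Of 13 listed, 11 were tested, 4 rose with palbociclib and 6 with the combination, and 0 fell in either. Over all tested genes 4.54% rose and 4.56% fell with palbociclib, and 5.87% rose and 7.82% fell with the combination. SERPINA1, which encodes alpha-1 antitrypsin, the main inhibitor of elastase in plasma, went from 2.74 and 3.12 TPM in DMSO to 65.6 and 57.1 TPM in palbociclib and 80.9 and 75.8 TPM in the combination (3.99 and 4.34). SERPINB1, an inhibitor of the same proteases inside the cell, rose by 2.10 and 1.54, and CST3, the cystatin C gene, by 1.89 and 2.16. SLPI, a secreted elastase inhibitor, had 14.2 and 8.37 TPM in palbociclib and 2.04 and 0.803 TPM in DMSO, without passing (adjusted p = 0.0126). With the replicate number as a block SLPI passed as a rise with palbociclib (adjusted p = 0.000891) and with the combination (adjusted p = 0.00382). In the combination against palbociclib 0 inhibitors rose and 1 fell, SERPINB10, named because it is the single call (-1.51 ± 0.17, adjusted p = 0.00813). Over all tested genes 0.459% rose and 0.0424% fell in that comparison.

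Of 16 transcription factors known to act on granule or monocyte genes, 15 were tested. With palbociclib 3 rose and 0 fell, where 4.54% of all tested genes rose and 4.56% fell. With the combination 5 rose and 1 fell, where 5.87% rose and 7.82% fell. KLF4, a monocyte factor, rose from 7.26 and 4.28 TPM to 31.5 and 30.5 TPM with the combination. CEBPD rose by 1.12 ± 0.13 (adjusted p = 0.000483). The early response factor EGR1 fell by 2.11 on the log2 scale (adjusted p = 0.00477). Its palbociclib difference of -1.21 missed the threshold (adjusted p = 0.0488) and passed as a fall with the replicate number as a block (adjusted p = 0.0013). With TCP alone 0 of these factors were called. The count was also 0 in the lists of other primary granule genes, later granule genes and inhibitors. Over all tested genes only 0.0565% were called with TCP, so 0 in lists this short says little about them.

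By summed TPM, monocyte markers were highest in the combination, as were the granule members with LYZ. The granule members without LYZ were highest in palbociclib. Of 12 markers 11 were tested, 7 rose with palbociclib, and all 11 tested rose with the combination. Over all tested genes 4.54% and 5.87% rose. Their sum was 199.9 to 216 TPM in DMSO, 301 to 314 TPM in TCP, 3260 to 3505 TPM in palbociclib and 10761 to 13370 TPM in the combination. S100A9 alone held 7343 and 5756 TPM of the sum in the combination. In the combination against palbociclib 7 of the markers rose and 0 fell, where 0.459% of all tested genes rose and 0.0424% fell. The markers' median difference was 1.93, while the median of the granule members was -0.84 and that of all genes -0.07. CD14, a receptor for lipopolysaccharide on monocytes, went from 77.0 and 68.0 TPM in palbociclib to 374 and 359 TPM in the combination (2.32 ± 0.24, adjusted p = 0.00717). S100A9 went from 1820 and 1578 TPM to 7343 and 5756 TPM (1.94 ± 0.20, adjusted p = 0.00649), and FCN1 from 11.6 and 14.8 TPM to 306 and 339.7 TPM (4.52 ± 0.33, adjusted p = 0.00236). Without regard to the test, 10 of the 11 markers were higher in the combination than in palbociclib. CD68 was lower (-0.15 ± 0.13, adjusted p = 0.596), with 614 and 738 TPM in palbociclib and 576 and 638 TPM in the combination. With palbociclib against DMSO 10 were higher and 1, CTSS, was lower (-0.35 ± 0.16, adjusted p = 0.117). Of the members, LYZ alone had both combination libraries above both palbociclib libraries, as CD14, S100A9 and FCN1 did. The same held for 16.6% of all tested genes. Unlike those of CD14, S100A9 and FCN1, the LYZ difference did not pass (0.64 ± 0.52, adjusted p = 0.586).

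Markers of mature neutrophils were partly present. Of 10, 5 were tested, and FCGR3B and CEACAM8 reached at most 0.0794 and 0.0442 TPM in any library. CSF3R, the receptor for granulocyte colony-stimulating factor, went from 62.8 and 54.5 TPM in DMSO to 346 and 343 TPM in palbociclib and 287 and 277 TPM in the combination (2.54 and 2.25, both called), the same order as most granule members. S100A12 and FPR1, which monocytes also express, rose with the combination by 8.57 and 5.44. Of the drug targets, CDK4 fell with the combination (-1.08 ± 0.10, adjusted p = 0.000214), KDM1A, which encodes LSD1, lay between 42.5 and 47.5 TPM with palbociclib and between 79.6 and 85.0 TPM without it, and CDK6 between 100.4 and 162 TPM in all libraries.

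By the distance between vectors of the 3 differences from DMSO, over 11646 tested genes that reached a mean of 5 TPM in a group, with the 8 members themselves left out, some members had close matches and others had none. MPO lay nearest to IL6R (distance 0.0767), then P2RY2 and TNFSF13B. AZU1 lay nearest to STON1-GTF2A1L and then SRGN (0.110 and 0.117), followed by SERPINB2. Among these non-members ELANE was closest to GPR160 (0.213), TNFSF13B and PTGER2, and PRTN3 to MT1H (0.349), FYB and TLR4. The list for RNASE2 was B4GALT5 (0.456), MT1H and FYB, and that for RNASE3 was PTGER2 (0.442), PTPN22 and GPR160. No gene came within 0.8 of CTSG or LYZ, whose nearest were SNORA19 (0.892), B3GNT5 and SMIM10, and FCAR (0.837), CYBB and THBS1. Between members the smallest distance was that of PRTN3 and RNASE2 (0.164), genes on different chromosomes, and each was nearer to the other than to its closest non-member.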

How the data were processed

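The authors deposited TPM. Reads were mapped to hg19 with subread-align, counted per gene with featureCounts (version 1.6.4 by the submitters' processing notes) and converted by the authors to TPM. The libraries were of stranded mRNA. The gene annotation, gene lengths and strand setting are not given in the sources used here. TPM keep no depth, so no count test or counting interval is given, and the 2 libraries in each group limit the precision.

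Repeated symbols were reduced to the row with the highest mean. log2(TPM + 1) was fitted over 8 libraries with limma (version 3.58.1, under R 4.3.3), with the 4 group means as coefficients, a mean-variance trend and Benjamini-Hochberg adjustment over 14151 genes. The fit was tested on simulated data. The members, lists, motifs and tests were chosen with earlier results of these data known. Named are the members, up to 4 genes a list with the largest difference under the combination (and a group mean of 5 TPM or more), the drug targets, protein-coding neighbours in the GENCODE annotation and the 3 nearest genes of each member. Undetected members of a list, the tested eosinophil and mast cell genes, single calls and genes that went against their list are named as well, after their values were seen. A gene covered by the rule is not reported here. Only symbols of that annotation were matched, and positions are from GRCh37 (GENCODE), the build of hg19, and promoters from RefSeq (GRCh38.p14), aligned with Biopython 1.88. No proteins were compared.

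Same-numbered libraries deviated together from their group means in all 6 pairs of groups (correlation across genes 0.169 to 0.491). The number may therefore mark pairs, which no label states, but the main fit left it out, so its SE ignore any pairing. With the number as a block, limma gave ELANE with TCP an adjusted p of 0.00686 instead of 0.0142, with a difference still under the size of a call. The alternatives were another pseudocount, other filters, other scalings, a replicate block, only the groups compared, no trend, an adjusted p below 0.05 and leaving out each library.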

Additional observations from a re-analysis of the deposited data

How the results depend on the processing

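Of the counts of called members, those of palbociclib against DMSO (6), the combination against TCP (7) and the interaction (0) stayed within 1.5 times under every alternative run. For the combination against DMSO, 3 instead of 5 members were called with no filter on low values, where 5.32% of the 26364 genes then tested were. CTSG (adjusted p = 0.0131) and RNASE2 (adjusted p = 0.0111) missed the threshold. Without the filter LYZ also missed it with palbociclib (adjusted p = 0.0105) and in the combination against TCP (adjusted p = 0.0121). With a replicate block, 1 member, PRTN3, was called for TCP against DMSO, where 0.141% of tested genes were. The block changed no other count of members. Among listed genes it added SLPI and EGR1 as above, and in the combination against TCP also SLPI, EGR1, MMP9 and EGR2. At an adjusted p below 0.05, 3 members were called for TCP against DMSO (PRTN3, RNASE2 and RNASE3), where 0.254% of tested genes were. For the combination against palbociclib 1 was called (CTSG), where 1.29% of tested genes were. With a mean of at least 5 TPM, MPO was not tested. Leaving out each library in turn left every count as it was, but the LYZ differences moved by over 1.5 times, to between 4.52 and 5.98 with palbociclib, between 5.16 and 6.63 with the combination and between 4.02 and 5.26 for the combination against TCP, with the extremes set by DMSO replicates 1 and 2 in the first pair and by TCP replicates 1 and 2 in the last.

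Single differences that turned sign were all within their error. CTSG with palbociclib was 0.044 with quantile normalization and 0.066 with median-ratio scaling, and from -0.40 to 0.20 over the 8 libraries left out. Over the same 8, the interaction ran from -0.0073 to 0.16 for ELANE and from -1.34 to 0.13 for LYZ, with the cause not tested. Of 802 single values 785 kept direction and side of the threshold, 6 passed that had not, 4 no longer passed and 7 turned sign. The fit of only the groups compared was not made for the interaction. With 2 libraries a group and unknown depth, a difference under the size of a call is not shown to be absent.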
